A study of Rattus norvegicus with 8 samples.

Results

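The cluster of mir-532, mir-188, mir-362, mir-501 and mir-500 is a set of miRNA genes that lie together within Clcn5, a gene on the X chromosome that encodes a chloride/proton exchanger of endosomes. The members examined here were chosen by name. Of the 10 mature miRNAs named, 9 were among the 752 mature miRNAs counted, and miR-660-5p was not analysed here. Small RNA had been sequenced from the striatum, a forebrain region of reward and movement control, of 8 wild-type male Sprague-Dawley rats. The rats had given themselves either methamphetamine (METH) or saline by lever press, with 4 rats in each group and 1 library per rat. Both groups had the same food training and catheter surgery, and the rats kept for sampling were those with stable lever pressing. The cluster was picked because miR-188-5p had been seen among the lower miRNAs of METH rats in these same libraries. All differences between METH and saline rats given here for the members are therefore descriptions, supported by no test. The question was whether the other members followed miR-188-5p.

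A miRNA is cut from a hairpin precursor, and either the 5′ arm (5p) or the 3′ arm (3p) can be loaded into an Argonaute protein, where bases 2 to 8, the seed, pair with target mRNAs. Hairpins on 1 primary transcript are made together, but each mature arm is then processed, loaded and degraded separately. Argonaute proteins usually keep 1 arm of a hairpin and release the other.

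In the RefSeq annotation of the rat assembly GRCr8, the hairpin genes within Clcn5 followed the order Mir532, Mir188, Mir362, Mir3560, Mir501 and Mir500. All of these lay on the strand of Clcn5 except Mir3560, which lay on the opposite strand and whose miRNA had no reads. Coordinates are not given, because the reads had been aligned to another assembly, rn6. Mature sequences for 8 of the 9 members were found in RefSeq (GRCr8, plus strand), and miR-362-5p is given by name only. They are shown 5′ to 3′ with the seed in capitals, because the seed decides which members could act on the same targets.
rno-miR-188-5p: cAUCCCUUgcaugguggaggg
rno-miR-532-5p: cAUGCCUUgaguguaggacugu
rno-miR-532-3p: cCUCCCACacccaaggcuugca
rno-miR-188-3p: cUCCCACAugcaggguuugc
rno-miR-500-3p: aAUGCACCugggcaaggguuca
rno-miR-501-3p: aAUGCACCcgggcaaggauuugg
rno-miR-362-3p: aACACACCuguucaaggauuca
rno-miR-501-5p: aAUCCUUUgucccuggguga

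Of these 8, miR-500-3p and miR-501-3p shared a seed, and the other 6 each had a seed of their own. When aligned, miR-500-3p and miR-501-3p had identical bases at 18 of 23 positions, so their separate counts are uncertain if reads could be assigned to either. The 3p arms of mir-188 and mir-532 shared the run CUCCCACA, which began at base 1 of miR-188-3p and at base 2 of miR-532-3p, so their seeds were offset by a base. Among the 693 mature rat miRNAs with a sequence in RefSeq, no other had the seed of miR-188-5p. Of the 752 miRNAs counted, 685 had such a sequence, and the rest could not be searched. The seed of miR-362-3p was also that of miR-329-3p, which had far more reads, at a mean of 264 CPM (count scaled to library size) in saline rats and 219 CPM in METH rats. The seed of miR-532-5p was also that of miR-511-5p, which was below the limit for testing.

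To place the members by read level, levels were compared within each rat as CPM, where library size was adjusted by a trimmed mean of M-values (TMM) factor. A read covers a whole mature miRNA, so no scaling by length was made. Reads were not calibrated to molecules for each sequence, so comparisons between miRNAs are of reads. A difference seen in every rat need not be one of abundance. Total counts ranged from 12929302 to 27632443 per library, and the cluster as a whole took between 0.00142% and 0.0159% of them. The members with the highest means were miR-500-3p, miR-532-5p and miR-532-3p, at 4.40, 4.24 and 3.95 log2 CPM over the 8 rats. These 3 held between 80.2% and 91.6% of the reads of the cluster in each library. Below them came miR-501-3p at 2.02, miR-188-5p at 1.12 and miR-362-5p at 0.24 log2 CPM. By these means 4 members lay above miR-188-5p. The other 3 members, miR-362-3p, miR-188-3p and miR-501-5p, had 52, 16 and 4 reads over all libraries, which is too few for a comparison of groups.

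Neighbours in this order were compared by a two-sided exact sign-flip permutation test of the difference within each of the 8 rats, adjusted over 8 pairs. A step was found between miR-532-3p and miR-501-3p, at 1.93 ± 0.88 log2 units (SD, higher in 8 of 8 rats, adjusted p = 0.0312). The step between miR-362-5p and miR-362-3p, the arms of 1 hairpin, was 1.94 ± 0.86 log2 units (SD, higher in 8 of 8 rats, adjusted p = 0.0312). No order could be given within the top 3. The difference between miR-500-3p and miR-532-5p was 0.17 ± 0.61 log2 units, and that between miR-532-5p and miR-532-3p was 0.29 ± 1.22 log2 units (SD, adjusted p = 0.508 for both by the exact test). The steps from miR-501-3p to miR-188-5p and from miR-188-5p to miR-362-5p were 0.90 and 0.88 log2 units and also missed the threshold (adjusted p = 0.0781 for both by the exact test).

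The values that led to the choice of the cluster were those of miR-188-5p. Its counts in saline rats 1 to 4 were 48, 114, 96 and 96, against 23, 33, 50 and 7 in METH rats 1 to 4. As CPM these were 2.15, 4.89, 3.50 and 3.75 in saline rats and 1.58, 1.66, 2.02 and 0.420 in METH rats. Every METH rat was thus below every saline rat. The mean was 3.57 ± 1.12 CPM (SD, n = 4) in saline rats and 1.42 ± 0.69 CPM (SD, n = 4) in METH rats, a log2 fold change of -1.32 ± 0.45 (SE). The separation was narrow at its edge. Saline rat 1, at 2.15 CPM, had an exact Poisson 95% interval of 1.59 to 2.85 CPM, and METH rat 3, at 2.02 CPM, had one of 1.497 to 2.66 CPM. These intervals cover counting error only. METH rat 4 was far below the rest on 7 reads, and without it the log2 fold change was -1.01.

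**Figure D1:**
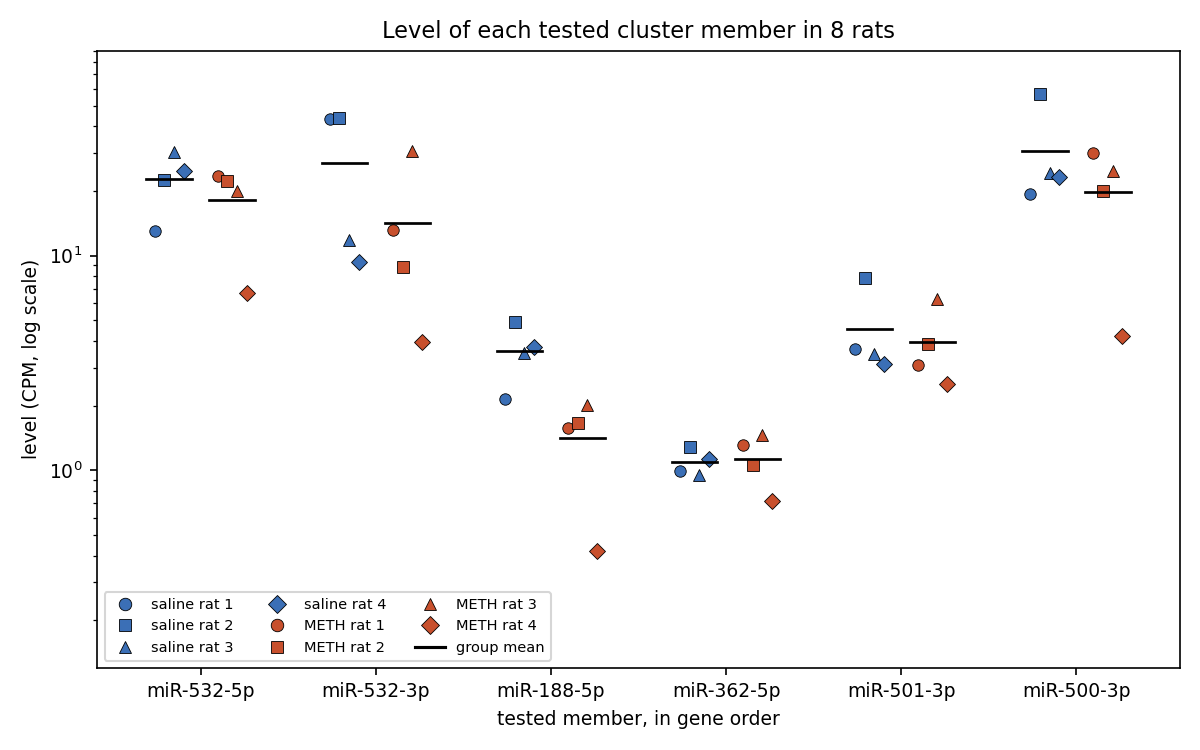
Level in CPM (log scale) of each tested member in the order of the genes, with 1 symbol per rat, saline in blue and METH in orange, and a line at each group mean. For miR-188-5p the 4 METH rats lie below the 4 saline rats, the other members overlap between groups, and METH rat 4 (orange diamond) is the lowest rat for each of the 6.

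The low-count filter was passed by 6 members, of which the 5 besides miR-188-5p could show whether the cluster moved together. After miR-188-5p, the member with the largest difference was miR-532-3p. It measured 43.4, 43.8, 11.8 and 9.30 CPM in saline rats 1 to 4 and 13.2, 8.86, 30.9 and 3.96 CPM in METH rats 1 to 4. Saline rats 1 and 2 and METH rat 3 were high and the other 5 rats low, so the groups overlapped widely. Its log2 fold change was -0.93 ± 0.68 (SE). It was -1.63 without METH rat 3, and -0.59, -0.59 and -0.62 without saline rat 1, saline rat 2 and METH rat 4.

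Of the 3 members with the highest means, miR-500-3p measured 19.3, 56.4, 24.3 and 23.2 CPM in saline rats 1 to 4 and 30.2, 19.98, 24.8 and 4.20 CPM in METH rats 1 to 4. A single saline rat was high and a single METH rat was low, and the other 6 rats lay between 19.3 and 30.2 CPM. The log2 fold change was -0.64 ± 0.55 (SE), but it was -0.28 without METH rat 4 and -0.16 without saline rat 2. For miR-501-3p, its partner in seed, the values were 3.68, 7.85, 3.46 and 3.13 CPM in saline rats and 3.09, 3.88, 6.25 and 2.52 CPM in METH rats. Both groups thus covered nearly the same range. The log2 fold change was -0.20 ± 0.40 (SE), and it turned to 0.21 without saline rat 2. With other single rats left out it ran from -0.53 (without METH rat 3) to -0.015 (without METH rat 4).

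The 5p arm of mir-532 measured 12.96, 22.6, 30.5 and 24.7 CPM in saline rats 1 to 4 and 23.4, 22.3, 19.9 and 6.66 CPM in METH rats 1 to 4. Apart from METH rat 4, each METH rat lay within the saline range. Its log2 fold change was -0.33 ± 0.41 (SE), and this shrank to -0.036 without METH rat 4 and to -0.13 without saline rat 3. The tested member with the lowest mean level, miR-362-5p, had 22, 30, 26 and 29 reads in saline rats and 19, 21, 36 and 12 reads in METH rats. Its level was 1.09 ± 0.15 CPM (SD, n = 4) in saline rats and 1.13 ± 0.32 CPM (SD, n = 4) in METH rats. Its log2 fold change of 0.06 ± 0.30 (SE) was the only one above 0, and with scaling to library totals it was -0.04. It also turned below 0 without METH rat 3 (-0.10) and without METH rat 1, and it was 0.23 without METH rat 4.

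Counted together, 5 of the 6 tested members were lower in METH rats, where 52.7% of the 507 tested miRNAs were lower, and with scaling to library totals 6 of 6 were lower, where 65.3% were. A level at least 1.5-fold lower was found for 3 of the 6 (miR-188-5p, miR-532-3p and miR-500-3p) and for 8.48% of tested miRNAs. The median log2 fold change of the 6 was -0.48, against -0.02 over the tested miRNAs, and that of the 6 was -0.16 without METH rat 4 and -0.24 without saline rat 2. The groups did not overlap for 1 of the 6, miR-188-5p, where 3.16% of tested miRNAs did not overlap in either direction and 1.38% did not overlap and were lower. The quasi-likelihood test of edgeR gave 0.0% of all miRNAs an adjusted p under 0.05 and 5.52% an unadjusted p under 0.05, and no p-value of this contrast is given for the members. Nothing is read from these member counts, because the choice of the cluster used the same comparison.

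**Figure D2:**
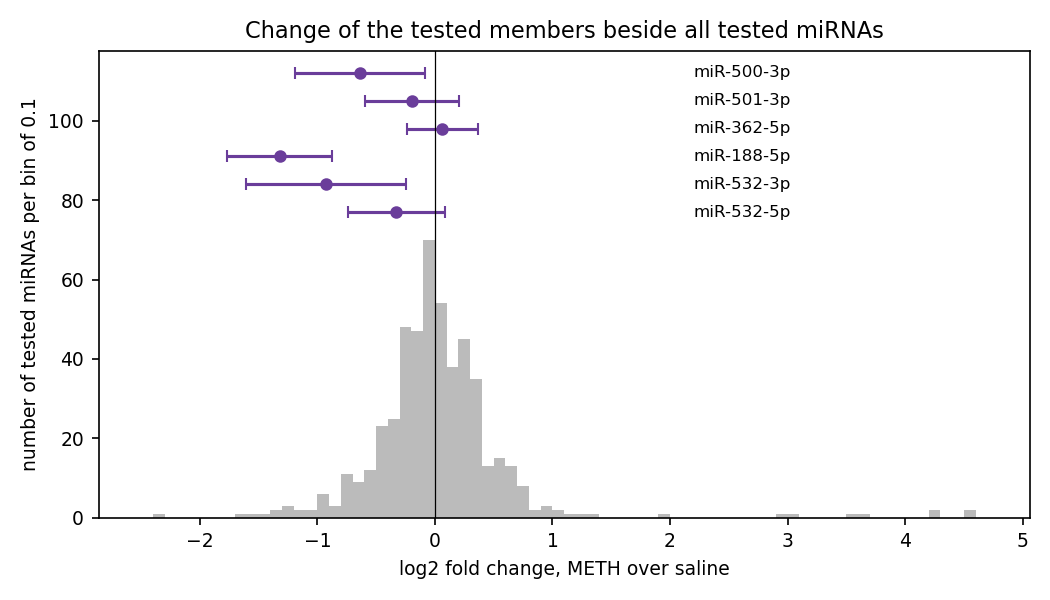
Log2 fold change of METH over saline for each tested member (point, with 1 SE on each side) above the distribution of this value over the 507 tested miRNAs in bins of 0.1. The height of the points has no meaning. The members spread from -1.32 for miR-188-5p to 0.06 for miR-362-5p, and the latter is at -0.04 with library totals.

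Summed over the 9 members, the cluster measured 82.7, 138, 75.0 and 65.8 CPM in saline rats 1 to 4 and 73.2, 58.1, 85.7 and 18.5 CPM in METH rats 1 to 4. METH rats 1 to 3 lay between 58.1 and 85.7 CPM, close to 3 of the saline rats. The log2 ratio of the group means was -0.62, and it was -0.32 without METH rat 4 and -0.34 without saline rat 2. In this bulk tissue, fewer cells that make a miRNA and less miRNA per cell cannot be told apart.

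METH rat 4 was the lowest of the 8 rats for all 6 tested members, where it was the lowest for 34.7% of tested miRNAs, and it had no reads of the 3 other members. This library also stood apart in general. It lay at 21.5 on the first principal component of the tested miRNAs, where the other 7 lay between -7.29 and 2.83, and it was the highest rat for 30.4% of tested miRNAs. All 3 choroid plexus markers (miR-204-5p, miR-211-5p and miR-449a-5p) were highest in it, with a sum of 7105 CPM against 2745 to 3546 CPM in the other rats. Erythrocyte markers were highest in it for 2 of 3 (miR-451-5p and miR-144-3p), and the 2 tested ones summed to 2816 CPM against 341 to 648 CPM. Of the 5 neuron markers, which were present in every library, miR-9a-5p was highest in METH rat 4, at 204524 CPM against at most 115872 CPM in the other rats. By contrast, miR-124-3p and miR-138-5p were lowest in it, at 97752 and 18488 CPM, and miR-128-3p and miR-137-3p lay within the range of the others. The sum of the 5 was 332511 CPM in this rat and 278805 to 483539 CPM in the others. Of the 3 oligodendrocyte markers, miR-219a-2-3p was highest in it, at 4119 CPM against at most 2770 CPM, whereas miR-219a-5p (113 CPM) and miR-338-3p (259 CPM) were lowest. Their sum of 4492 CPM, against 2334 to 4052 CPM in the others, thus came mostly from 1 marker. Of the 4 leukocyte markers, miR-150-5p was lowest in it, at 665 CPM against at least 1053 CPM, and set the sum of 688 CPM against 1076 to 2094 CPM. In that list miR-223-3p was highest in it, at 14.0 CPM against at most 4.08 CPM, and miR-142-3p and miR-142-5p lay within the range of the others. None of these markers was at 0 in any library, and their part in the low cluster values of METH rat 4 was not tested.

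Ratios within a library need no scaling factor, so each member was next set against miR-188-5p in the same rat. For miR-362-5p the ratio was 0.458, 0.263, 0.271 and 0.302 in saline rats 1 to 4 and 0.826, 0.636, 0.720 and 1.71 in METH rats 1 to 4. In METH rats this pair was thus nearer to equal numbers, and the groups did not overlap. The ratio of miR-501-3p to miR-188-5p ranged from 0.833 to 1.71 in saline rats and from 1.96 to 6 in METH rats. That of miR-532-5p ranged from 4.62 to 8.71 in saline rats and from 9.88 to 15.9 in METH rats. For miR-500-3p the ranges met, at 6.19 to 11.5 in saline rats and 10 to 19.1 in METH rats, and they parted without METH rat 4. By contrast, miR-532-3p ran from 2.48 to 20.2 in saline rats and from 5.33 to 15.3 in METH rats, with no separation.

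The groups therefore did not overlap for 3 of the 5 ratios to miR-188-5p, and for 4 of 5 without METH rat 4. Over all tested miRNAs the share was 43.3%, all of them higher in METH rats. In either direction it was 43.7% without METH rat 4, 59.9% without METH rat 3 and 79.2% without saline rat 1. Because miR-188-5p itself was low in METH rats, a high share is built into these ratios, and nothing is read from the count of members. Among the 10 ratios between members other than miR-188-5p, 0 were free of overlap, where 4.02% of such ratios between tested miRNAs with reads in every library were, so nothing is read from this count either.

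**Figure D3:**
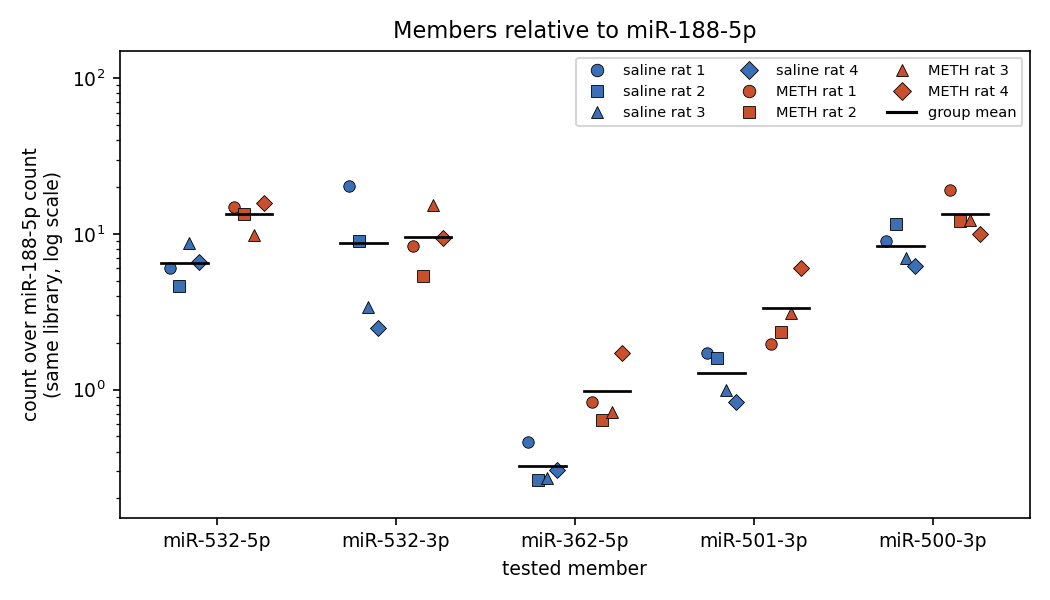
Count of each member divided by the count of miR-188-5p in the same library (log scale), with 1 symbol per rat, saline in blue and METH in orange, and a line at each group mean. METH rats lie above saline rats for miR-532-5p, miR-362-5p and miR-501-3p, whereas the groups overlap for miR-500-3p and miR-532-3p.

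Whether members vary together between rats of the same treatment does not use the difference between groups, and it was tested on deviations of log2 CPM from the group means over 8 rats. The p-values come from a two-sided exact permutation test over 576 rearrangements of rats within groups, and were adjusted over 506 miRNAs compared with miR-188-5p. For miR-500-3p, Pearson's r was 0.93 (p = 0.0139, adjusted p = 0.153) and Spearman's rho was 0.86 (p = 0.0365, adjusted p = 0.307) by this exact test. For miR-362-5p, r was 0.90 (p = 0.0122, adjusted p = 0.150) and rho was 0.90 (p = 0.00868, adjusted p = 0.293) by the same exact test. For these members r was 0.77 and 0.81 after METH rat 4 and saline rat 1, whose deviations of miR-188-5p were farthest from the median deviation, were left out. Neither passed the adjusted threshold.

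For miR-532-5p, r was 0.90 (p = 0.0625, adjusted p = 0.217) and rho was 0.40 (p = 0.380, adjusted p = 0.700) by the exact test. Without METH rat 4 and saline rat 1, its r was -0.32, so this relation rested on those rats. For miR-501-3p, r was 0.66 (p = 0.0799, adjusted p = 0.224) and rho was 0.81 (p = 0.0330, adjusted p = 0.298), and r was 0.86 without those rats. For miR-532-3p, r was 0.49 (p = 0.262, adjusted p = 0.413) and rho was 0.71 (p = 0.0833, adjusted p = 0.389) by the exact test, and r was 0.93 without those rats. Removing METH rat 4 alone brought r to 0.73 for miR-500-3p, 0.64 for miR-362-5p, 0.63 for miR-532-5p and miR-501-3p, and -0.019 for miR-532-3p.

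An unadjusted p under 0.05 with a positive r was found for 2 of the 5 members and for 11.3% of the 506 miRNAs by the exact test. The count of members was 0 without METH rat 4 (3.95% of the 506), 1 without saline rat 2 (11.7%) and 4 with scaling to library totals (17.8%). The median r over these miRNAs was 0.17. An adjusted p under 0.05 was found for 0 of them, and the smallest adjusted p was 0.146.

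**Figure D4:**
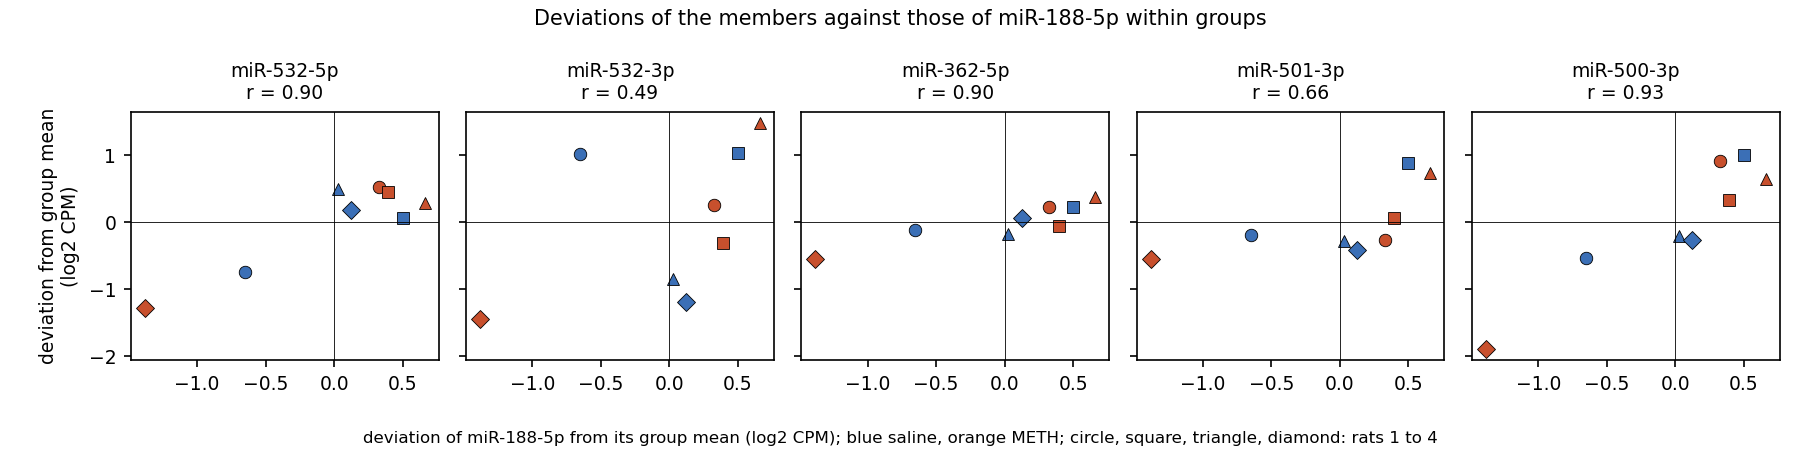
Deviation of each member from its group mean (vertical, log2 CPM) against that of miR-188-5p (horizontal, log2 CPM) in each rat, saline in blue and METH in orange. METH rat 4 (orange diamond) lies far to the lower left in the panels, and without it and saline rat 1 the r of miR-532-5p is -0.32 while those of the other 4 members are between 0.77 and 0.93.

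The miRNAs outside the cluster with levels most like those of miR-188-5p were looked up. Over the 8 rats, with group differences left in, the highest r with miR-188-5p belonged to miR-324-3p at 0.97, miR-17-5p at 0.94 and miR-3552 at 0.93. Among the 506 miRNAs ranked this way, miR-500-3p was at rank 14, miR-532-5p at 34, miR-532-3p at 136, miR-362-5p at 157 and miR-501-3p at 161. These ranks include the group difference of miR-188-5p that led to the choice of the cluster. By r within groups, the ranks were 15 for miR-500-3p, 36 for miR-532-5p, 41 for miR-362-5p, 144 for miR-501-3p and 194 for miR-532-3p. For the summed level of the cluster, the closest miRNAs outside it were miR-195-5p at 0.98, miR-337-3p at 0.98 and miR-3542 at 0.95. All these values share the same 8 libraries and scaling factors, and METH rat 4 is far from the rest in many of them.

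The share of the 5p arm among the reads of both arms describes which arm gave more reads. The hairpins of the cluster were split in this respect. In mir-188 and mir-362 most reads came from the 5p arm, with shares of 89.2% to 100% and 61.2% to 100% in the 8 rats. In mir-500 and mir-501 nearly all came from the 3p arm, and the 5p share was at most 1.16% and 1.23%. In mir-532 neither arm prevailed throughout. With 16 reads of miR-188-3p over all libraries, a shift between the arms of mir-188 could not be judged. The hairpins of mir-532 and of mir-188, from which miR-188-5p is cut, are printed with the mature arms in capitals (RefSeq, GRCr8, plus strand).
mir-532: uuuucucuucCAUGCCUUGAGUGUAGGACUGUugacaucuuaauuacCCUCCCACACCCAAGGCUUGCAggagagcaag
mir-188: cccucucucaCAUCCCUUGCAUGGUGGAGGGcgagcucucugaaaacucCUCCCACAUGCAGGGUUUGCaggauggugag

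The 5p share of mir-532 was 23.0%, 34.1%, 72.1% and 72.6% in saline rats 1 to 4 and 64.0%, 71.6%, 39.2% and 62.7% in METH rats 1 to 4. Saline rats 1 and 2 and METH rat 3 had more 3p than 5p reads, and the other 5 had more 5p reads. The split was not that of the treatment groups, whose means were 50.4 ± 25.7% (SD, n = 4) in saline rats and 59.4 ± 14.0% (SD, n = 4) in METH rats. The Wilson 95% interval, which covers counting error and not the spread between rats, was 20.7% to 25.4% in saline rat 1 and 69.6% to 75.5% in saline rat 4. The ratio of 5p to 3p reads ranged over 3.15 log2 units between rats. Among 148 hairpins with at least 10 reads of each arm in every library, this range was the 19th largest, and the median range was 1.84 log2 units.

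The rats high in miR-532-3p were also high in some miRNAs from elsewhere. The miRNAs closest to miR-532-3p over the 8 rats, looked up after its values were seen, were miR-3542 (r of 0.93), miR-760-3p (0.92) and miR-28-5p (0.91). For miR-760-3p the levels were 671, 511, 351 and 280 CPM in saline rats 1 to 4 and 437, 325, 484 and 279 CPM in METH rats 1 to 4, so the same 3 rats led.

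**Figure D5:**
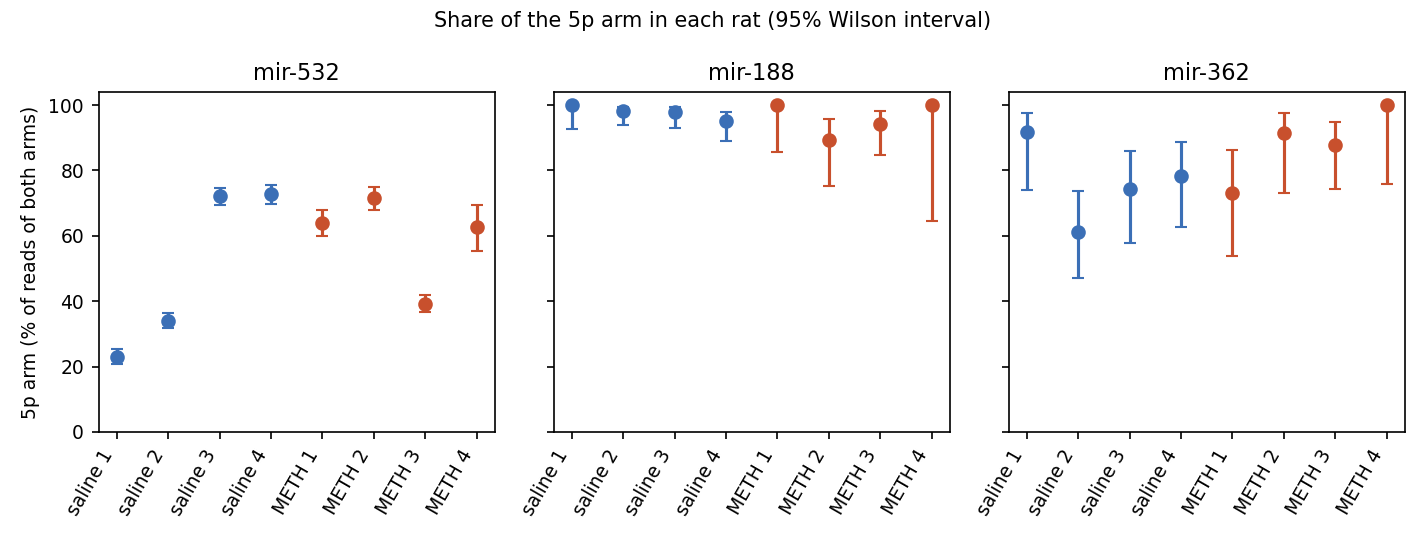
Share of the 5p arm among the reads of both arms (%) of mir-532, mir-188 and mir-362 in each rat, with 95% Wilson intervals for counting error, saline in blue and METH in orange. For mir-532, saline rats 1 and 2 and METH rat 3 lie between 23.0% and 39.2% and the other rats between 62.7% and 72.6%.

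The members with few reads gave only limits. For miR-188-3p, the arm opposite miR-188-5p, there were 0, 2, 2 and 5 reads in saline rats 1 to 4 and 0, 4, 3 and 0 reads in METH rats 1 to 4. Hence the other arm of mir-188 could not show whether the hairpin itself was lower in METH rats at this depth. For miR-362-3p there were 2, 19, 9 and 8 reads in saline rats and 7, 2, 5 and 0 reads in METH rats, which overlap. For miR-501-5p there was at most 1 read in any library. A count of 0 allows up to 3 reads, or 0.180 CPM in METH rat 4 and 0.206 CPM in METH rat 1.

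Other miRNAs of the X chromosome, listed from general knowledge, were set beside the cluster. Of 45 such miRNAs counted, 39 were tested, of which 17 were higher and 22 lower in METH rats. Their median log2 fold change was -0.04, with a range from -0.68 for miR-505-3p to 0.78 for miR-224-5p. In the quasi-likelihood test of edgeR, 0 of them had an adjusted p under 0.05, 0 had an unadjusted p under 0.05, and 0 were free of overlap between groups. Over all tested miRNAs these shares were 0.0%, 5.52% and 3.16%. METH rat 4 was the lowest rat for 11 of the 39, where it was the lowest for 34.7% of all tested miRNAs. It was the highest for 16 of the 45 counted, where it was the highest for 30.4% of all tested miRNAs. The sum of the 39 was 26098 CPM in this rat and 16836 to 22189 CPM in the others.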

How the data were processed

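The deposited values are raw counts of reads per mature miRNA in 8 libraries. Per the labels and methods, a small RNA fraction was cut from a gel and prepared with a kit that adds molecular tags. The authors trimmed adapters with Cutadapt 1.18, aligned reads to rn6 with STAR 2.7.0e and counted them with featureCounts (Subread 1.6.4). The miRNA annotation, merging of reads by tag and the handling of reads with several alignments are not given in the sources used here, so counts may include PCR copies. In R 4.3.3, filterByExpr of edgeR 4.0.16 (minimum count 10) kept 507 of 752 miRNAs. Counts were scaled by TMM and compared by the quasi-likelihood test with Benjamini-Hochberg adjustment over the 507. Standard errors are the absolute log2 fold change over the square root of F, and log2 CPM used a prior count of 2. DESeq2 1.42.0, other scalings, filters and tests were alternatives. Adjustment of correlations was widened from the members to 506 miRNAs. The named miRNAs were each member with reads, the 3 miRNAs outside the cluster most correlated with miR-188-5p and with the summed cluster, and those sharing a seed, with cell type markers and list extremes where a result turns on them. The miRNAs closest to miR-532-3p were added after its values were seen. Members and lists were chosen with earlier results of these data known. The quasi-likelihood test was also run on counts simulated with 1 common dispersion and no outlying library, and the outcome is not reported here. Nothing states more than 1 library per rat, and p-values reflect the spread between rats.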

Additional observations from a re-analysis of the deposited data

Results flagged for a closer look

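The level of miR-188-5p in METH rat 4 was -0.97 log2 CPM, where its group otherwise ran from 0.74 to 1.08, a gap of 0.836 of the whole range, on 7 reads. That of miR-532-5p in the same rat was 2.76 log2 CPM, where its group otherwise ran from 4.32 to 4.56, a gap of 0.871 of the range. These were 2 of 14 groups of 4 rats examined, and both lie in 1 library. A rate of 1 in 20 would give 0.7, but the groups share libraries and are not independent. The cluster was also chosen for the low METH values of miR-188-5p. METH rat 4 was the lowest rat for 34.7% of tested miRNAs and the highest for 30.4%. The share flagged over all tested miRNAs is not given here, so nothing is read from this count.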

How the results depend on the processing

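Over all tested miRNAs, calls at an adjusted p under 0.05 numbered 0 (28 at an unadjusted p under 0.05) in the quasi-likelihood test, 8 with DESeq2, 6 with the edgeR exact test and 7 with the likelihood ratio test, and from 0 to 5 with 1 library left out (5 without METH rat 1). The replicate block, which pairs rats by numbers given in deposit order only (correlations of deviations from -0.36 to -0.15), gave 0 calls, with miR-188-5p at -1.41 (log2). In repeated fits of the same 8 libraries, the log2 fold changes of members kept their sign in 52 of 53 values under other settings. They kept it in 45 of 48 with 1 library left out. Exceptions were miR-362-5p with library totals, without METH rat 1 and without METH rat 3 (lowest -0.10), and miR-501-3p without saline rat 2. No share over all tested miRNAs is given beside these counts, so nothing is read from them. Library totals moved the median over all miRNAs from -0.02 to -0.12. For miR-188-5p the range was -1.41 to -1.22 under other settings and -1.55 to -1.01 with 1 library left out. Leaving a rat out cannot bring overlap to groups that already lie apart, so the lack of overlap of miR-188-5p was bound to stay. No other tested member became free of overlap in those 8 cases. The share of all tested miRNAs free of it ran from 4.14% to 10.5%, the most without METH rat 1. This alternative was added after the data had been seen. With 1 library left out, the number of neighbouring levels that differed ranged from 0 to 3. With 7 rats no p is below 0.0156, so 2 pairs at that value cannot pass after adjustment, and the order of the mean levels was the same in all 8 cases. The within-group r of miR-532-3p ranged from -0.019 to 0.78, the lowest without METH rat 4. Few reads limit miR-188-5p (7 in METH rat 4), miR-362-5p and the 3 members below the filter.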
